A study of Mus musculus with 6 samples.

Results

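The mitochondrial genome of the mouse encodes 37 genes, and all 37 were found on the reference sequence MT of GRCm38 in the gene table of each library, out of 55421 genes listed. They comprised 13 protein-coding genes, 2 rRNA genes and 22 tRNA genes. The rule that chose them uses their position on this sequence. Expression was measured by RNA-seq of total RNA in C2C12 cells, a mouse myoblast line, on day 4 of differentiation in low-serum medium. Both groups were DM1 models. Each stably carried a GFP plasmid with 200 CUG repeats (CUG200) in the transcribed region after the GFP coding sequence, which imitates the toxic repeat RNA of myotonic dystrophy type 1. The control group carried that construct and an empty vector, while the miR-322/-503 group carried it together with a plasmid that overexpresses the microRNAs miR-322 and miR-503. Such lines were selected with G418 or puromycin, according to the resistance on each plasmid. Each group had 3 libraries of 1 stable cell line, so an effect of the microRNAs and a difference between the lines cannot be told apart.

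Mitochondrial DNA is a small circular genome kept in many copies per cell. It is transcribed from both strands into long RNAs, and these are cut into mRNAs, rRNAs and tRNAs, largely at the tRNAs that lie between the other genes. The mRNAs encode subunits of respiratory complexes I, III and IV and of ATP synthase (complex V), while the rRNAs and tRNAs serve the ribosomes of the organelle itself. Muscle fibers rely on this machinery for ATP, and myoblasts are known to raise their mitochondrial content when they differentiate.

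Total estimated counts ranged from 73532084 to 92157388 per library. Each count stood for 75 covered bases, so a count is not a read pair, and the number of pairs is not known. The muscle lineage was well represented in both groups: all 13 muscle markers passed the filter on low counts, and 7 were higher and 1, Myog, was lower with miR-322/-503. Of 12 markers of other cell types, 3 passed the filter, 3 were at 0 in every library, and their summed level ranged from 51.7 to 53.6 CPM in the control and from 106 to 118 CPM with miR-322/-503, nearly all of it from Tubb3. Of the 3 tested, Tubb3 was called higher, Gfap was called lower (from 0.762 ± 0.14 to 0.13 ± 0.00863 CPM), and Cd68 was not called. The part of these differences in the results below was not tested. The Mir322 locus had 1, 7 and 2 counts in the controls and 17, 0 and 3 with miR-322/-503, and the Mir503 locus had 1, 1 and 2 counts and 6, 4 and 5. The groups overlapped for Mir322, and such counts do not measure the mature microRNAs, so they do not check the labels. Between the groups, 13.2% of 18140 tested genes were higher and 15.5% were lower with miR-322/-503 (edgeR quasi-likelihood test, Benjamini-Hochberg adjusted p under 0.05).

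A few sequences show where the counts of neighboring or copied genes can mix. Nuclear chromosome 1 carries a copy of part of the mitochondrial genome, annotated as 7 pseudogenes on the minus strand between positions 24611535 and 24616197. Over 345 aligned bases mt-Nd3 and its copy Gm28438 differed at 1 base, T3C, and over 483 aligned bases mt-Co1 and Gm29216 differed at 1 base, A1066T. Positions are counted from the first base of the mitochondrial gene, with the mitochondrial base given first. The other 5 copies had no difference over the aligned length. The 45 bases around each difference are given below from GENCODE M21 transcripts on GRCm38, 5′ to 3′, with the differing base in capitals.
mt-Nd3, MT:9459-9503, plus strand: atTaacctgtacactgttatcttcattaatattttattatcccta
Gm28438, chr1:24613075-24613119, minus strand: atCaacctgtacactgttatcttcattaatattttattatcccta
mt-Co1, MT:6390-6434, plus strand: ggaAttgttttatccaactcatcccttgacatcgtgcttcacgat
Gm29216, chr1:24616144-24616188, minus strand: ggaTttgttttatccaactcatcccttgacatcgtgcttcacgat

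Within the mitochondrial genome some genes share bases. The end of mt-Atp8 overlaps the start of mt-Atp6 by 43 bases, and the end of mt-Nd4l overlaps the start of mt-Nd4 by 7 bases. The shared bases are in capitals, on the plus strand, and reads over them cannot be assigned to 1 gene from the sequence alone. Among other overlaps, not shown here, mt-Nd5 ends at position 13565, within mt-Nd6 (13552 to 14070, minus strand). The gene mt-Tl2 likewise starts at position 11671, where mt-Ts2 ends.
mt-Atp8 and mt-Atp6, MT:7897-7999: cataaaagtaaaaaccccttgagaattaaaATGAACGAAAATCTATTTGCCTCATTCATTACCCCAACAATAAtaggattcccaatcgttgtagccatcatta
mt-Nd4l and mt-Nd4, MT:10137-10203: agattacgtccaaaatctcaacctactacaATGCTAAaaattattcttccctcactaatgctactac

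The mitochondrial genes took a larger share of the counts in every miR-322/-503 library than in any control library. Their share was 5.47%, 5.21% and 7.14% in control 1 to 3, and 7.39%, 7.56% and 9.72% in miR-322/-503 1 to 3. The mean rose from 5.94% ± 1.05 to 8.22% ± 1.3 (SD, n = 3 each), a ratio of 1.38. The groups did not overlap, but control 3 lay closer to the first miR-322/-503 library than to the other controls. In bulk libraries more mitochondrial RNA per cell, less of other RNA and a changed mixture of cells cannot be told apart.

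**Figure D1:**
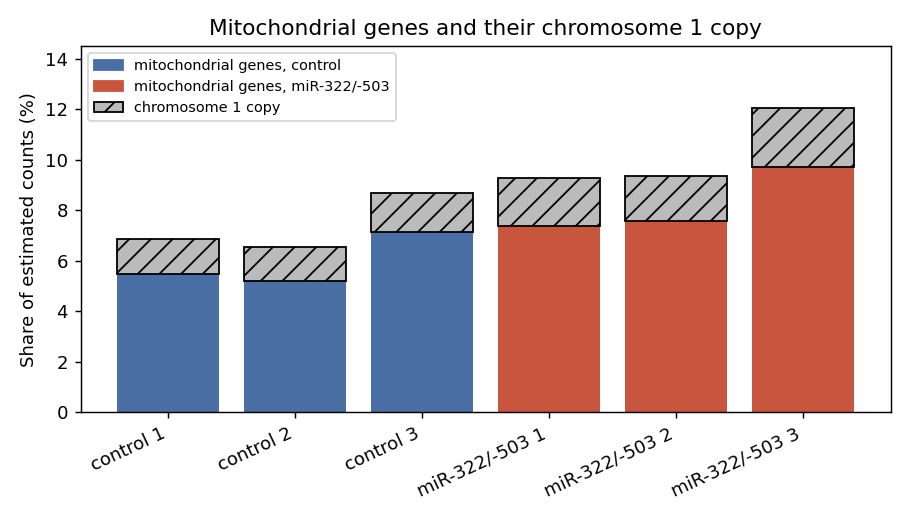
Share of estimated counts, in percent, taken by the 37 mitochondrial genes (colored part of each bar) and by their chromosome 1 copy (hatched part), with 1 bar per library. The mitochondrial share lies between 5.21% and 7.14% in the control and between 7.39% and 9.72% with miR-322/-503.

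Nearly all of this share came from the mRNAs. The 13 protein genes held 5.41%, 5.16% and 7.06% of the counts in the controls and 7.31%, 7.48% and 9.61% with miR-322/-503, a ratio of means of 1.38. The rRNA genes held 0.057% ± 0.0124 in the control and 0.0797% ± 0.0117 with miR-322/-503, a ratio of 1.4. The tRNA genes held only 0.00787% ± 0.00179 and 0.0119% ± 0.0026, a ratio of 1.51. The rRNA genes thus kept a similar proportion to the mRNAs. Their counts were 0.965% ± 0.038 of the mRNA counts in the control and 0.981% ± 0.0229 with miR-322/-503, and the groups overlapped. For the tRNA genes this percent was 0.133 ± 0.00658 in the control and 0.145 ± 0.00856 with miR-322/-503, a ratio of 1.09, again with overlap.

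Other RNAs without a poly(A) tail were looked at beside the rRNAs. How RNA was selected for the libraries is not given in the sources used here. The only nuclear rRNA gene listed, Rn5s, was at 0 in every library. Of 12 short nuclear RNA genes without a poly(A) tail, such as the 7SK and signal recognition particle RNAs, 5 were tested, with adjusted p between 0.32 and 0.918 (edgeR). Their sum was between 7.35 and 12.5 CPM in the control and between 7.83 and 15.1 CPM with miR-322/-503. The replication-dependent histone genes, whose mRNAs also lack a poly(A) tail, summed to 158 to 177 CPM in the control and to 178 to 184 CPM with miR-322/-503 over 70 genes, and 1 of the 38 tested was called higher. How far the values for mt-Rnr1, mt-Rnr2 and the tRNA genes follow the cellular amounts of these RNAs was not tested.

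In the test per gene, 33 of the 37 mitochondrial genes passed the filter on low counts. Of these, 10 were higher with miR-322/-503 (30.3%, beside 13.2% of all tested genes) and 0 were lower (beside 15.5%). None was lower at an unadjusted p under 0.05 either, nor by DESeq2, while 17 were higher at that level. The median log2 fold change was 0.44, beside −0.01 over all tested genes, whose middle range ran from −0.3 to 0.28. A log2 fold change over 1 beside the adjusted p was reached by 5 mitochondrial genes, all tRNA genes, while 4.59% of all tested genes were past both limits in this direction. The 3 miR-322/-503 libraries were all above the 3 controls for 12 of the 33 genes (36.4%), and for 21.6% of all tested genes. The number called depended on single libraries: it fell to 2 without control 1, to 4 without control 2, to 5 without miR-322/-503 1 and to 3 without miR-322/-503 3, and was 12 without control 3.

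**Figure D2:**
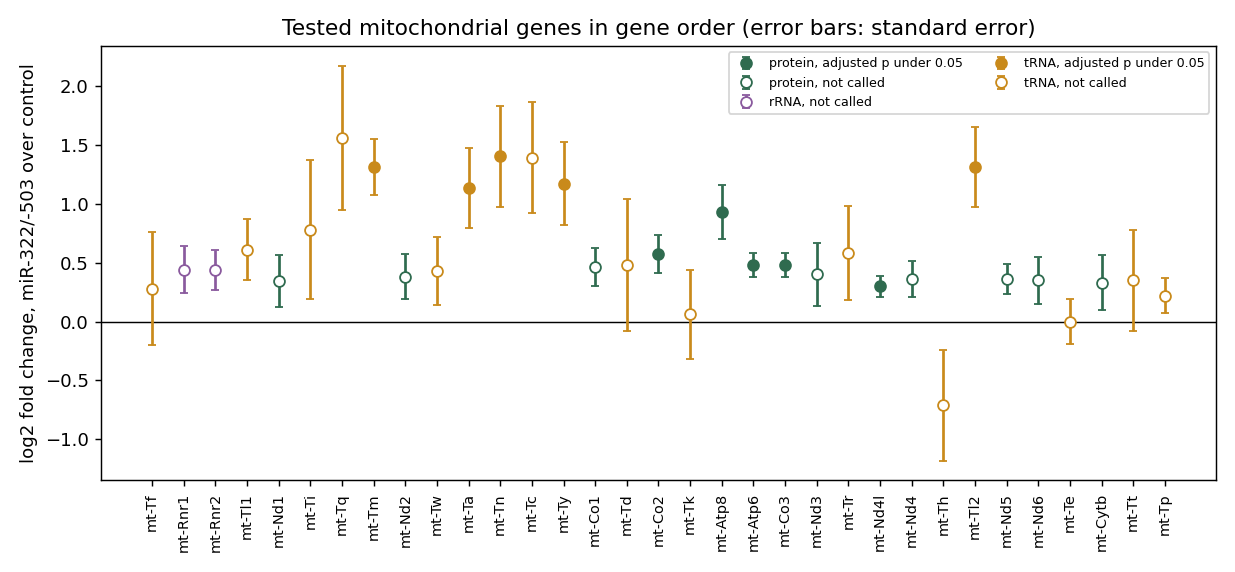
Log2 fold change of miR-322/-503 over control for the 33 tested mitochondrial genes in genome order, with standard errors from the edgeR fit; filled points have an adjusted p under 0.05 and open points do not. Protein and rRNA genes lie between 0.3 and 0.93, while tRNA genes spread from −0.71 to 1.56.

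All 13 mRNAs had a positive log2 fold change, with a median of 0.38. Of them, 5 were called higher (38.5%, beside 13.2% of all tested genes). The median was 0.58 without control 3 and 0.21 without miR-322/-503 3, and all 13 changes were positive in both fits. The genes mt-Co2, mt-Atp8, mt-Atp6, mt-Co3 and mt-Nd4l were called. With limma on log2 TPM none of these 5 was called, with adjusted p between 0.0573 and 0.235 over both pseudocounts, and 4 mRNAs had an unadjusted p under 0.05. Levels below are in TMM-normalized CPM, counts scaled to a common library size, and each sentence gives the controls before the miR-322/-503 libraries.

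Both mitochondrial subunits of ATP synthase were called higher. The gene mt-Atp8 (ENSMUSG00000064356, MT:7766-7969) encodes a small membrane subunit, and its level was 1237, 1209 and 1355 CPM in the controls and 2558, 1540.4 and 3119 CPM with miR-322/-503. The groups did not overlap, and miR-322/-503 2 stood well below the other 2 libraries of its group. Its log2 fold change of 0.93 ± 0.23 (SE, adjusted p = 0.0196, edgeR) had the highest value among the 13 mRNAs. The gene mt-Atp6 (MT:7927-8607) encodes subunit a, which forms part of the proton path, and it was at 3472, 3689 and 3806 CPM in the controls and at 4993, 4383 and 5889.7 CPM with miR-322/-503. This change of 0.48 ± 0.1 (adjusted p = 0.0113, edgeR) was called in 5 of the 6 fits that left out 1 library, with control 1 as the exception. The call of mt-Atp8 was lost without control 1, control 2, miR-322/-503 1 or miR-322/-503 3.

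Of the catalytic core subunits of complex IV (cytochrome c oxidase), 2 of 3 were called. The gene mt-Co3 (MT:8607-9390) was at 3255, 2919 and 3342 CPM in the controls and at 4207, 3965 and 5055 CPM with miR-322/-503. All 3 miR-322/-503 libraries were above the controls, the log2 fold change was 0.48 ± 0.1 (adjusted p = 0.00916, edgeR), and edgeR kept the call whichever library was left out. The copper-binding subunit gene mt-Co2 (MT:7013-7696) was at 2165, 1913 and 2285 CPM in the controls and at 3168, 2404 and 3856 CPM with miR-322/-503, again without overlap. Its change was 0.57 ± 0.16 (adjusted p = 0.0343, edgeR), and it was called in 1 of the 6 fits that left out a library, the one without miR-322/-503 2. The gene mt-Co1 (MT:5328-6872) encodes the heme-carrying subunit and had the highest counts of the mitochondrial genes. It was at 20027, 18552 and 26387 CPM in the controls and at 26297, 27684 and 35529 CPM with miR-322/-503. Control 3 was marginally above miR-322/-503 1, and the change of 0.46 ± 0.16 missed the threshold (adjusted p = 0.0624, edgeR).

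Complex I (NADH dehydrogenase) has 7 mitochondrial subunits, and 1 of them was called. The gene mt-Nd4l (MT:9877-10173) was at 1049, 1215 and 1072 CPM in the controls and at 1307, 1272 and 1525 CPM with miR-322/-503. This was the smallest log2 fold change of the 13 mRNAs, 0.3 ± 0.09 (adjusted p = 0.0416, edgeR), and it had the smallest standard error of the 13. Of the 6 fits that left out 1 library, those without control 2 and without miR-322/-503 2 kept the call. The other 6 subunit genes, mt-Nd1, mt-Nd2, mt-Nd3, mt-Nd4, mt-Nd5 and mt-Nd6, had log2 fold changes between 0.34 and 0.4 with adjusted p between 0.0774 and 0.329, and their groups overlapped.

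Among these, mt-Nd1 (MT:2751-3707) was at 5094, 4819 and 7839.7 CPM in the controls and at 5982, 7068 and 9392 CPM with miR-322/-503, so that control 3 was above 2 of the miR-322/-503 libraries. The gene mt-Nd5 (MT:11742-13565) was at 4108, 4076 and 5171 CPM and at 4824, 5815 and 6482 CPM. In both genes the overlap came from control 3 alone. The only mRNA encoded on the minus strand, mt-Nd6 (MT:13552-14070), was at 838, 958 and 1242 CPM and at 994, 1273 and 1613 CPM, a change of 0.35 ± 0.2 (adjusted p = 0.236, edgeR). Its log2 fold change lay within the range of the mRNAs of the plus strand. Whether the libraries kept the strand of the RNA is not given in the sources used here, and without it reads from mt-Nd6 or from a minus-strand tRNA gene cannot be told apart from those of the RNA of the opposite strand.

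Complex III has a single mitochondrial subunit, cytochrome b. Its gene mt-Cytb (MT:14145-15288) was at 7392, 6839 and 11629 CPM in the controls and at 8835, 9916 and 13831 CPM with miR-322/-503. Control 3 was above 2 of the miR-322/-503 libraries, and the change of 0.33 ± 0.23 was not called (adjusted p = 0.341, edgeR).

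**Figure D3:**
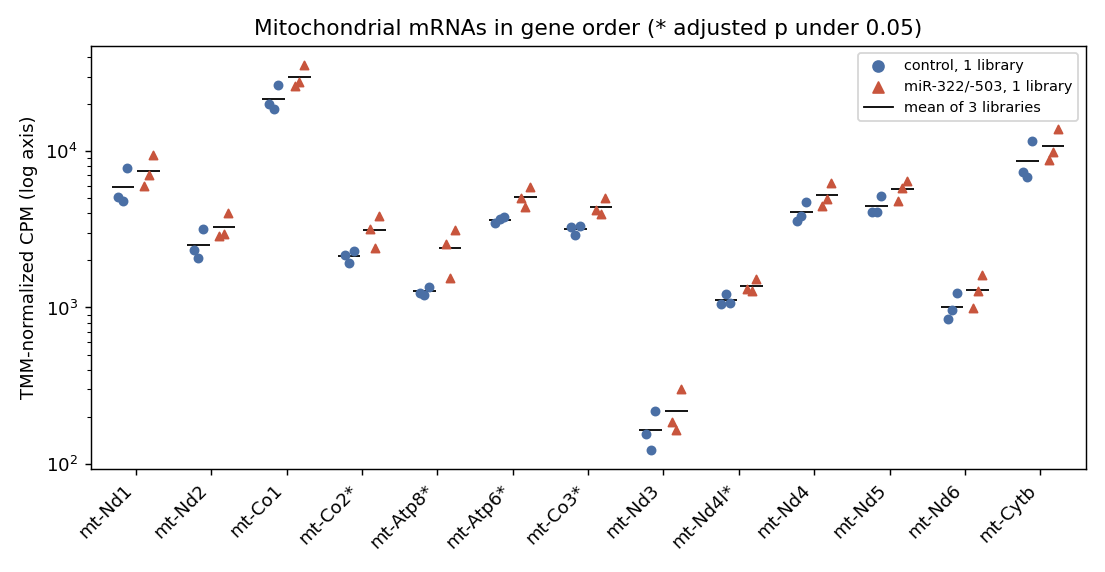
TMM-normalized CPM (log axis) of the 13 mitochondrial mRNAs in genome order, with 1 point per library and a bar at the mean of 3 libraries; an asterisk marks an adjusted p under 0.05. Control 3 is the highest control for 12 of the 13 mRNAs, and miR-322/-503 3 is the highest of all 6 libraries for 13 of 13.

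Control 3 was the highest control for 12 of the 13 mRNAs, mt-Nd4l being the exception. For the 5 called mRNAs its level was 0.947 to 1.12 times the mean of control 1 and 2, and the coefficient of variation over the controls was 4.64% to 8.95%. For the 8 uncalled mRNAs the same ratio was 1.26 to 1.63, and the coefficient of variation was 14% to 30.4%. Over the miR-322/-503 libraries the coefficient of variation was 10% to 33.3% for the called and 14.6% to 33.9% for the uncalled mRNAs. The call itself uses the spread, so these values are a description. The library miR-322/-503 3 was likewise the highest of its group for every mRNA. Over the 13 mRNAs, the median log2 level relative to the control mean was −0.1, −0.12 and 0.24 in the controls and 0.21, 0.28 and 0.7 with miR-322/-503. Without control 3, 6 mRNAs were called, and without miR-322/-503 3, 2 were called.

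In the edgeR test the called mRNAs lay next to each other on the mitochondrial genome, which was not tested as a pattern. From mt-Co2 at position 7013 to mt-Nd4l, which ends at position 10173, 5 of 6 mRNAs were called, with mt-Nd3 as the exception, and no mRNA was called outside. Other fits did not keep this pattern: DESeq2 also called mt-Co1, mt-Nd4 and mt-Nd5, edgeR without control 3 called mt-Nd2, mt-Co1 and mt-Nd5 beside mt-Atp8, mt-Atp6 and mt-Co3, and limma called 0 mRNAs. The annotated copies on chromosome 1 match genes from mt-Co1 to mt-Nd4, which takes in this stretch. Of the 5 mRNAs matched by an annotated copy over more than 90% of their length, 4 were called (mt-Co2, mt-Atp6, mt-Co3 and mt-Nd4l). Of the 2 matched in part, mt-Co1 over its last 31.3% and mt-Nd4 over its first 63.6%, 0 were called by edgeR, although both had an unadjusted p under 0.05 (0.0194 and 0.0435) and DESeq2 called both. Of the 6 without an annotated copy, mt-Atp8 was called by edgeR, mt-Atp8 and mt-Nd5 by DESeq2, and mt-Atp8, mt-Nd2 and mt-Nd5 by edgeR without control 3. The stretch of chromosome 1 between Gm10925 and Gm28661, where a continuous copy would hold mt-Atp8, has no annotated pseudogene, and its sequence was not examined here.

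The copies had the same coverage as the genes they match. Over the 5 pairs matched over more than 90% of the gene, coverage of the copy divided by coverage of the mitochondrial gene was between 0.976 and 1.06 in all 6 libraries. For mt-Co3 and Gm28437, whose 783 aligned bases are identical, the coverage in control 1 was 24097 and 23941 per base. For the partly matched genes the ratio was lower, 0.35 to 0.444 for mt-Co1 and 0.451 to 0.588 for mt-Nd4. There the divisor was the coverage of the whole gene, so the ratio does not compare the same bases. Whether the authors' counting divided reads between both places or counted them at both is not given in the sources used here, so the level of a matched gene and of its copy are both uncertain.

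**Figure D4:**
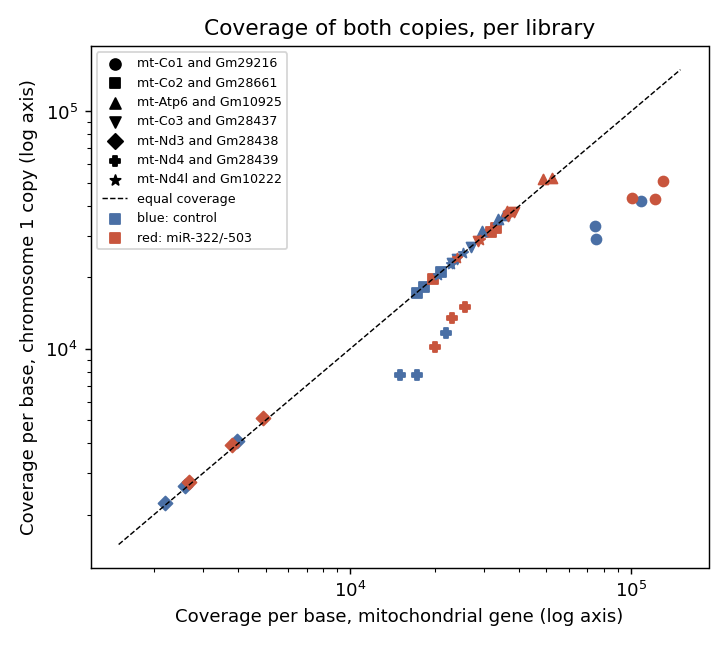
Coverage per base of each chromosome 1 pseudogene (vertical, log axis) against that of the mitochondrial gene it matches (horizontal, log axis), with 1 point per library and pair; the dashed line marks equal coverage. The 5 pairs matched over more than 90% of the gene lie along the line, and mt-Co1 and mt-Nd4, matched in part, lie below it. For mt-Co1 and mt-Nd4 the horizontal value is that of the whole gene, not of the matched part.

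The 7 pseudogenes had changes close to those of their mitochondrial counterparts, apart from Gm28439, with 0.52 beside 0.36 for mt-Nd4. The log2 fold changes were 0.55 for Gm28661, 0.47 for Gm10925, 0.47 for Gm28437 and 0.3 for Gm10222. Their adjusted p was between 0.00971 and 0.0414 (edgeR), so 4 of 7 pseudogenes were called higher (57.1%, beside 13.2% of all tested genes). The changes of Gm28439, Gm28438 and Gm29216 were 0.52, 0.41 and 0.41, and were not called. The copy held 1.37%, 1.35% and 1.53% of the counts in the controls and 1.89%, 1.8% and 2.34% with miR-322/-503. With each copy added to its mitochondrial gene, 10 mitochondrial genes were again called. As most pairs had near-equal changes, this addition could hardly alter the calls. The share of both together went from 7.36% ± 1.15 to 10.2% ± 1.58. It holds the same reads more than once if they were counted at both places. Another 10 annotated near-copies elsewhere in the genome, with at least 90% identity over at least 100 bases, had group means of at most 22.5 CPM in the control and 30.7 CPM with miR-322/-503, both for Gm13340. Of these, 4 were tested and 1 was called: Gm13341, which matches mt-Co2 at 95.9% identity, was at 2.46, 1.57 and 2.06 CPM in the controls and at 7.47, 2.67 and 5.05 CPM with miR-322/-503 (1.32 ± 0.37, adjusted p = 0.0327, edgeR), and was named after its value was seen.

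The mRNAs were compared with each other per length, in TPM, a length-corrected level that sums to the same total in each library. The level of mt-Co1 ranked first in all 6 libraries, with a mean of 26615 TPM in the control and 36064 TPM with miR-322/-503. The next places were taken by mt-Cytb (14302 and 17693 TPM), mt-Atp8 (11796 and 21974 TPM), mt-Nd1 (11738 and 14574 TPM) and mt-Atp6 (10194 and 13966 TPM), whose order changed between libraries. At the lower end, mt-Nd6 ranked 12 and mt-Nd3 ranked 13 in every library, with 3702 and 899.9 TPM in the control. TPM of genes of the chromosome 1 stretch share the uncertainty given above.

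The balance between the mRNAs moved little. As a percent of all mitochondrial mRNA counts, mt-Atp8 went from 2.15% ± 0.241 to 2.98% ± 0.788, a ratio of 1.39, but miR-322/-503 2 at 2.1% lay within the control range. The share of mt-Co1 was 36.2% ± 0.599 and 37.2% ± 0.541 without overlap in counts, whereas the same ratio was 0.999 in TPM. The share of mt-Nd4l was the one with the lowest ratio, 0.901, with overlapping groups. The remaining 10 mRNAs had ratios between 0.944 and 1.09 and overlapping groups. With each library scaled to the sum of its mitochondrial mRNAs, 0 mRNAs were called higher and 0 lower by edgeR, and 1 had an unadjusted p under 0.05.

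The rRNAs form the core of the small and the large subunit of the mitochondrial ribosome. The small-subunit rRNA mt-Rnr1 (MT:70-1024) was at 204, 211 and 309.6 CPM in the controls and at 268, 319 and 397 CPM with miR-322/-503. The large-subunit rRNA mt-Rnr2 (MT:1094-2675) was at 319, 276 and 419 CPM and at 444, 390.2 and 542 CPM. In both, control 3 was above the lowest miR-322/-503 library. The log2 fold changes were 0.44 ± 0.2 for mt-Rnr1 (adjusted p = 0.139, edgeR) and 0.44 ± 0.17 for mt-Rnr2 (adjusted p = 0.101, edgeR), so 0 of 2 were called, while DESeq2 called 2 and 1 passed an unadjusted p in edgeR. Without control 3 both were called, with changes of 0.66 for mt-Rnr1 and 0.62 for mt-Rnr2, and without miR-322/-503 3 the changes were 0.28 and 0.3 (adjusted p = 0.373 and 0.28, edgeR).

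The tRNA genes are 59 to 75 bases long, and 14 are on the plus and 8 on the minus strand. Their counts were low: 14 of the 22 had a mean below 1 CPM in the control, and mt-Tv, mt-Ts1, mt-Tg and mt-Ts2, with at most 17 counts in any library, did not pass the filter. A mature tRNA and a longer precursor that contains it cannot be told apart in these counts. Of the 18 tested genes, 17 had a positive log2 fold change, and the median was 0.6. Called higher were 5 of them (27.8%, beside 13.2% of all tested genes): mt-Tm, mt-Ta, mt-Tn, mt-Ty and mt-Tl2. The median was 0.98 without control 3 and 0.4 without control 2, and the number called was 1 without control 1, control 2 or miR-322/-503 3 and 2 without miR-322/-503 1. The 5 called genes are shown here from GENCODE M21 on GRCm38, each 5′ to 3′ on its own strand as DNA, with the anticodon in capitals.
mt-Tm (methionine), MT:3845-3913, plus strand: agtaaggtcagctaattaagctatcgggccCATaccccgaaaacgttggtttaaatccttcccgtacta
mt-Ta (alanine), MT:5018-5086, minus strand: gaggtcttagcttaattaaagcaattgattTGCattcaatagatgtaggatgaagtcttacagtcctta
mt-Tn (asparagine), MT:5089-5159, minus strand: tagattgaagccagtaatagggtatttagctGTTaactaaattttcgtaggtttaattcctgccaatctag
mt-Ty (tyrosine), MT:5260-5326, minus strand: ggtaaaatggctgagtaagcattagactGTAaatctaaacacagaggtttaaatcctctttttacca
mt-Tl2 (leucine), MT:11671-11741, plus strand: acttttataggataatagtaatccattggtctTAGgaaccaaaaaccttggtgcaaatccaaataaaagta

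The methionine tRNA gene mt-Tm, which reads the start codon, had the lowest adjusted p among the mitochondrial genes. It was at 2.13, 1.73 and 2.89 CPM in the controls and at 4.63, 5.11 and 7.05 CPM with miR-322/-503. The groups did not overlap, the log2 fold change was 1.31 ± 0.24 (adjusted p = 0.00615, edgeR), and the gene was called in 19 of the 19 alternative fits. These included each fit without 1 library and the scaling to the mitochondrial mRNA sum.

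The genes mt-Ta, mt-Tn and mt-Ty belong to a cluster of minus-strand tRNA genes between mt-Nd2 and mt-Co1. The gene mt-Ta was at 1.12, 0.896 and 1.46 CPM in the controls and at 2.36, 1.6 and 3.66 CPM with miR-322/-503, a log2 fold change of 1.13 ± 0.34 (adjusted p = 0.0436, edgeR). The gene mt-Tn was at 2.12, 1.42 and 2.72 CPM and at 4.47, 2.92 and 9.1 CPM, a change of 1.4 ± 0.43 (adjusted p = 0.0485, edgeR). The gene mt-Ty was at 0.892, 0.606 and 1.15 CPM and at 1.75, 1.39 and 2.81 CPM, a change of 1.17 ± 0.35 (adjusted p = 0.0435, edgeR). None of the 3 overlapped between groups, although for mt-Ta and mt-Tn the lowest miR-322/-503 library, miR-322/-503 2, lay just above control 3. The fourth gene of the cluster, mt-Tc, behaved alike in level, with 1.45, 0.957 and 2.21 CPM and 3.03, 2.25 and 6.81 CPM, but it missed the threshold (1.39 ± 0.47, adjusted p = 0.0649, edgeR). Each of the 3 calls was lost without control 1, control 2, miR-322/-503 1 or miR-322/-503 3, and those of mt-Ta and mt-Tn also without control 3.

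The leucine tRNA gene mt-Tl2 was at 0.388, 0.351 and 0.272 CPM in the controls and at 0.65, 0.76 and 1.1 CPM with miR-322/-503, without overlap. Its change was 1.31 ± 0.34 (adjusted p = 0.0259, edgeR), and it was kept in 1 of the 6 fits that left out a library, the one without miR-322/-503 1. The highest log2 fold change among the tRNA genes, 1.56 ± 0.61, was that of the glutamine tRNA gene mt-Tq, with 0.504, 0.291 and 1.21 CPM and 1.06, 1.55 and 3.32 CPM. Control 3 was above the first miR-322/-503 library there, and the gene was not called (adjusted p = 0.0988, edgeR).

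**Figure D5:**
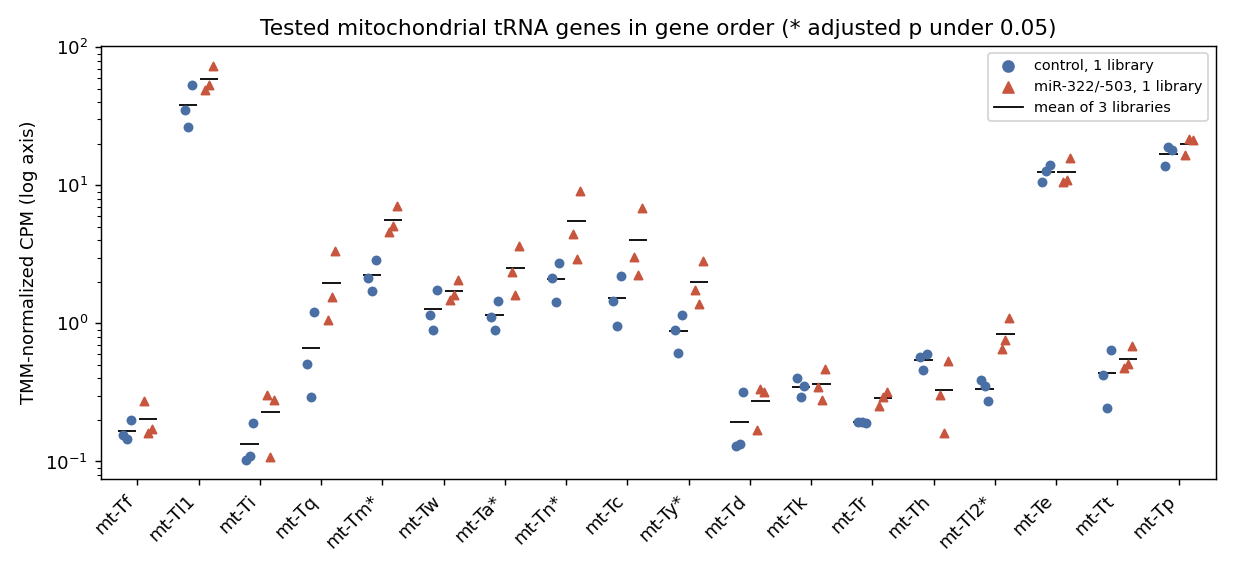
TMM-normalized CPM (log axis) of the 18 tested mitochondrial tRNA genes in genome order, with 1 point per library and a bar at the mean of 3 libraries; an asterisk marks an adjusted p under 0.05. The 5 called genes have all miR-322/-503 libraries above the controls, and mt-Te and mt-Tp, at over 10 CPM, overlap.

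The 3 tRNA genes with the highest counts were not called. The second leucine tRNA gene, mt-Tl1, which follows mt-Rnr2, was at 35.2, 26.4 and 52.9 CPM in the controls and at 48.8, 52.9 and 73.6 CPM with miR-322/-503, a change of 0.61 ± 0.26 (adjusted p = 0.125, edgeR). The proline tRNA gene mt-Tp was at 13.9, 18.9 and 18 CPM and at 16.5, 21.5 and 21.3 CPM, a change of 0.22 ± 0.15 (adjusted p = 0.333, edgeR). The glutamate tRNA gene mt-Te was at 10.5, 12.7 and 14.1 CPM and at 10.6, 11 and 15.9 CPM, a change of 0 ± 0.19 (adjusted p = 0.988, edgeR). In all 3 the groups overlapped, and control 3 was the highest control for mt-Tl1 and mt-Te. The histidine tRNA gene mt-Th was the 1 tested gene with a negative log2 fold change, −0.71 ± 0.47 (adjusted p = 0.317, edgeR), at levels of at most 0.604 CPM. The other 7 tested tRNA genes, mt-Tf, mt-Ti, mt-Tw, mt-Td, mt-Tk, mt-Tr and mt-Tt, had log2 fold changes between 0.06 and 0.78 and adjusted p between 0.326 and 0.929 (edgeR), and only the arginine tRNA gene mt-Tr did not overlap between the groups, at 0.189 to 0.194 CPM in the controls and 0.252 to 0.319 CPM with miR-322/-503. By strand, 3 of 7 tested minus-strand genes were called, with a median log2 fold change of 1.17, and 2 of 11 plus-strand genes, with a median of 0.48. The difference between the strands was not tested, and the counts of each gene may hold reads of both strands, as for mt-Nd6.

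The nuclear genes that act on mitochondrial RNA did not show a shift like that of the mitochondrial genes themselves. Of 72 tested genes for transcription, RNA processing and maintenance of mitochondrial DNA, 9 were higher (12.5%) and 6 were lower (8.33%), and their median log2 fold change was 0.03. Over all tested genes these shares were 13.2% and 15.5%.

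In the list for transcription and its nuclear control, 4 of 17 genes were higher and 1 was lower. The gene Ppargc1a, which encodes the coactivator PGC-1alpha, a known driver of mitochondrial biogenesis, was at 3.27, 4.37 and 3.4 CPM in the controls and at 5.61, 6.32 and 6.67 CPM with miR-322/-503. All miR-322/-503 libraries were above the controls, with a log2 fold change of 0.75 ± 0.16 (adjusted p = 0.00998, edgeR). Its partner, the nuclear receptor gene Esrra, was at 20.2, 24 and 21.7 CPM and at 30.7, 33.5 and 30.5 CPM, a change of 0.52 ± 0.09 (adjusted p = 0.0042, edgeR). The genes Gabpa, a subunit of nuclear respiratory factor 2, and Mterf2, of the mitochondrial transcription termination factor family, rose by 0.2 ± 0.05 (adjusted p = 0.022, edgeR) and 0.57 ± 0.14 (adjusted p = 0.019, edgeR) on the log2 scale, and the related gene Mterf1a was lower.

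The transcription machinery itself was not called. The log2 fold changes were 0.14 ± 0.11 for the RNA polymerase gene Polrmt (adjusted p = 0.395, edgeR), 0.14 ± 0.08 for the packaging and initiation factor gene Tfam (adjusted p = 0.262, edgeR), −0.02 ± 0.07 for the initiation factor gene Tfb2m (adjusted p = 0.854, edgeR) and 0.27 ± 0.09 for the elongation factor gene Tefm (adjusted p = 0.0558, edgeR). For Tfam and Tefm the 3 miR-322/-503 libraries were nonetheless all above the controls, at 27 to 30.4 CPM against 24.1 to 26.9 CPM for Tfam. The regulators Ppargc1b and Nrf1 had changes of 0.4 and −0.07 and were not called.

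Among 33 genes of RNA processing and turnover, 3 were higher and 3 were lower. The gene Slirp, whose product binds and stabilizes mitochondrial mRNAs together with LRPPRC, was at 19.7, 21.6 and 31.1 CPM in the controls and at 35.4, 36 and 40.9 CPM with miR-322/-503. Control 3 was also the highest control here, but the groups did not overlap (0.63 ± 0.17, adjusted p = 0.0296, edgeR). Lrpprc itself was at 51.9 to 53.2 CPM and at 56.2 to 60.5 CPM and missed the threshold (0.16 ± 0.06, adjusted p = 0.0715, edgeR). The gene Ptcd2, of the pentatricopeptide repeat family, was higher by 0.58 ± 0.08 (adjusted p = 0.00169, edgeR). Lower were Elac2, the enzyme that trims the 3′ ends of tRNAs, from 37.2 ± 1.36 to 28.2 ± 1.94 CPM (adjusted p = 0.00767, edgeR), and Rexo2, an oligoribonuclease, from 126 ± 2.69 to 88.6 ± 4.64 CPM (adjusted p = 0.000617, edgeR). The degradosome genes Pnpt1 and Supv3l1 had changes of 0.41 and −0.08 and were not called.

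Of 22 genes of mitochondrial DNA replication and maintenance, 2 were higher and 2 were lower. The helicase gene Twnk and the DNA polymerase gene Polg had log2 fold changes of 0.1 and −0.09 (adjusted p = 0.398 and 0.419, edgeR). The gene Primpol, a primase-polymerase, was higher by 0.5 ± 0.13 (adjusted p = 0.0296, edgeR). The mitochondrial fusion gene Mfn2 was lower, with 109, 105 and 102 CPM in the controls and 75.4, 52 and 72.7 CPM with miR-322/-503 (−0.66 ± 0.13, adjusted p = 0.00891, edgeR), as was the nuclease gene Exog (−0.55 ± 0.15, adjusted p = 0.0305, edgeR). No copy number of mitochondrial DNA was measured.

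The nuclear partners of the mitochondrially encoded proteins showed no common shift either. Of 79 tested nuclear subunits of complexes I to V, 4 were higher (5.06%, beside 13.2% of all tested genes) and 2 were lower (2.53%, beside 15.5%). Their median log2 fold change was 0.04. In complex I, Ndufb5 was higher (0.28 ± 0.08, adjusted p = 0.0376, edgeR) and Ndufb7 was lower, with 113, 118 and 100 CPM in the controls and 61.1, 66.5 and 61.1 CPM with miR-322/-503 (−0.81 ± 0.08, adjusted p = 0.000238, edgeR). The other called subunits were Uqcrfs1, the Rieske protein of complex III (0.39 ± 0.1), Atp5md (0.32 ± 0.09) and Atp5l (−0.31 ± 0.05) of ATP synthase, and Cox8b of complex IV. The muscle isoform gene Cox8b stood apart, with 0.388, 0.678 and 0.343 CPM in the controls and 2.02, 2.55 and 3.1 CPM with miR-322/-503, a log2 fold change of 2.44 ± 0.33 (adjusted p = 0.00129, edgeR). It is expressed at a low level beside the other subunits, so it hardly moved their sum, which was 6774 to 7471 CPM in the control and 7268 to 7365 CPM with miR-322/-503.

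Of 78 genes of mitochondrial ribosomal proteins, 3 were higher (3.85%, beside 13.2% of all tested genes) and 4 were lower (5.13%, beside 15.5%). Their median log2 fold change was 0.02. Among these, Mrps27 and Mrpl1 rose by 0.62 ± 0.09 (adjusted p = 0.00157, edgeR) and 0.54 ± 0.14 (adjusted p = 0.0267, edgeR), while Mrpl52 fell by 0.41 on the log2 scale (adjusted p = 0.00954, edgeR).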

How the data were processed

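RNA-seq of 3 control and 3 miR-322/-503 libraries was used. Per the paper and the labels, the authors used Trim Galore for trimming, HISAT2 for alignment to GRCm38 and StringTie for the count tables; versions and the annotation are not given in the sources used here. The deposited matrix holds estimated counts as whole numbers. The deposited table of each library adds FPKM, TPM and the coverage of each gene. Tables were joined by gene ID; coordinates of all 37 mitochondrial genes matched GENCODE M21. The members and the gene lists were chosen with earlier results of these data known.

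Counts were tested with edgeR 4.0.16 in R 4.3.3 (filterByExpr, TMM, quasi-likelihood F test, group as the only term), and p-values were adjusted by Benjamini-Hochberg over 18140 genes; a call is an adjusted p under 0.05, and the fold cut-off was a log2 fold change over 1. Standard errors are the log2 fold change divided by the root of F. Shares have no test. Alternatives used DESeq2 1.42.0, limma 3.58.1 on log2(TPM + 1) and log2(TPM + 0.1), other scalings and filters, a replicate block, and each library left out. Adding the copy to its gene, and scaling without both, were chosen after seeing the data. Copies were aligned with BLAST 2.17.0. The fits were also run on simulated counts with large changes in genes above the lowest levels. That check does not cover changes as small, or counts as low, as many of those reported here. Replicate counts differed by more than sampling noise (chi-square per degree of freedom 14.8 to 21.3). The study describes biological replicates, and p-values measure the spread between these libraries, which come from 1 line per group. Named nuclear genes are the 3 called genes of each list with the greatest absolute log2 fold change and 16 factors given whatever their value; Mterf1a was added after its value was seen. Libraries without molecular identifiers carry more than counting error.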

Additional observations from a re-analysis of the deposited data

How the results depend on the processing

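With 3 libraries per group, the mitochondrial share had a ratio of 1.38 (1.26 to 1.54 with 1 library left out), which was not tested. Of 33 tested mitochondrial genes, 10 were called; the number was 2 to 12 with 1 library left out, 17 by DESeq2, 6 without a filter on low counts, 5 by limma with either pseudocount, 5 with the fold cut-off and 4 after scaling to the mitochondrial mRNA sum. For the protein genes (5 called) it was 1 to 6, 8 by DESeq2, 0 by limma with either pseudocount (4 at an unadjusted p), 0 with the fold cut-off and 0 after that scaling. For the rRNA genes (0 called) it was 0 to 2, and 2 by DESeq2. For the tRNA genes (5 called) it was 1 to 5, and 2 without the filter. Their median log2 fold change, 0.6 in the main fit, was 0.17 after that scaling. With counts divided by 4, this median was 1.13 over 13 tested genes. For the chromosome 1 copy (4 called) the number was 1 to 4, 2 without the filter, 0 by limma with either pseudocount, 0 with the fold cut-off and 0 after that scaling. Nuclear respiratory subunits were called 7 higher and 4 lower by DESeq2, beside 4 and 2. The cause of these differences was not tested. The ratio of the mt-Co1 share of mRNA counts was 0.999 in TPM. DESeq2 size factors, totals without TMM (12 called), a minimum of 10 counts, counts divided by 4 and scalings without the mitochondrial genes or the copy kept the number within 1.5 times.

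The replicate numbers were not taken as pairs, since libraries with equal numbers correlated by only 0.131, 0.0687 and 0.0451 after removal of group means. With the replicate number as a block, 21 mitochondrial genes were called higher, 12 of them protein genes and 2 of them rRNA genes, while mt-Nd4l (adjusted p = 0.0581, edgeR), mt-Tl2 (adjusted p = 0.0664, edgeR) and the copy Gm10222 (adjusted p = 0.057, edgeR) were no longer called. Among nuclear respiratory subunits 8 were higher and 5 lower, and 5 mitochondrial ribosomal proteins were higher.

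Signs changed mainly after scaling to the mRNA sum, which sets the mean change of the mRNAs near 0 by construction: mt-Tf −0.1, mt-Nd1 −0.08, mt-Nd2 −0.05, mt-Tk −0.39, mt-Nd3 −0.03, mt-Nd4l −0.15, mt-Nd4 −0.07, mt-Nd5 −0.07, mt-Nd6 −0.08, mt-Te −0.44, mt-Cytb −0.08, mt-Tt −0.04, mt-Tp −0.21, Gm10222 −0.15, Gm28438 −0.03 and Gm29216 −0.02. Called under this scaling were mt-Tm, mt-Tn, mt-Tq and mt-Tc. Otherwise only uncalled tRNA genes changed sign: mt-Tf at −0.0047 without miR-322/-503 1 (up to 0.43 without other libraries), mt-Tk at −0.06 without control 2 and −0.15 without miR-322/-503 3 (up to 0.21), and mt-Te at −0.03 by limma, −0.01 with the block, −0.1 without control 1 and −0.21 without miR-322/-503 3 (up to 0.12).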
